A study of Mus musculus with 18 samples.

Results

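The regions described here are the peaks that the deposited tables list as bound by EBF1 and not by PAX5 and that lie within 1000 bp of the nearest annotated transcription start site. They were chosen by that distance alone, and 2022 of the 7815 EBF1-only peaks met it, out of 14377 bound peaks in 3 tables (EBF1-only, PAX5-only and shared). The series measured chromatin accessibility by ATAC-seq and RNA by RNA-seq in mouse pro-B cells grown from fetal liver, on a C57BL6/J background. The 3 genotypes were wild type (WT), Ebf1-KO and Pax5-KO, each with 3 ATAC and 3 RNA libraries (18 in all). All groups were expanded on OP9 stromal cells in interleukin-7 plus the ligands of KIT and FLT3, so the stroma and the cytokines were shared by the controls. The labels do not say whether the 3 libraries of a group are separate animals or cultures, so p-values measure only the spread between these libraries.

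EBF1 is a transcription factor that starts the B-lineage programme, can open closed chromatin and binds an inverted repeat of TCCC, and PAX5 acts with and after it to fix B-cell identity. Most mammalian promoters of broadly used genes lie in CpG islands, stretches rich in C, G and CpG dinucleotides whose chromatin is open in nearly every cell type. Lineage-restricted promoters more often lack such an island and depend on cell-type factors. ATAC-seq uses a transposase that cuts open DNA, so the number of sequenced tags in a peak measures how accessible it is.

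Deposited ATAC depth was 15.3 to 38.6 M tags per library, and RNA depth was 27.3 to 89.1 M reads. All values below are the deposited ones, scaled to 10 M tags or reads per library (scaled tags, scaled reads). The bound peaks held 1.52 to 2.31% of the tags in WT, 0.93 to 1.11% in Ebf1-KO and 0.83 to 1.02% in Pax5-KO. Ebf1 RNA was 3252, 4200 and 4454 scaled reads in WT, against 1447, 1345 and 1605 in Ebf1-KO, with 1328.5, 1556 and 1661 in Pax5-KO. Reads over the gene thus remained in the Ebf1-KO libraries, and both knockouts lay below WT and overlapped each other. Pax5 RNA was 1314 to 1629 in WT, 8.53 to 15.7 in Ebf1-KO, with 98.6 to 129 in Pax5-KO. The summed RNA of 12 B-progenitor markers was 42324 to 50252 in WT, 4215 to 4269 in Ebf1-KO, with 14554 to 21838 in Pax5-KO, while the sum of 8 natural killer (NK) cell markers was 12.3 to 13.2, 1461 to 1471 and 131 to 208. The sum of 8 T-lineage markers was 30.6 to 40.4, 1071 to 1277 and 200 to 298, and the sum of 8 myeloid markers was 7.04 to 16.8, 721 to 828 and 91.0 to 122. Single members did not all follow these sums. Fcgr3 (363 to 388), Itgam (155 to 204) and Mpo (131 to 219) made up most of the myeloid sum in Ebf1-KO. Lyz2 was lower there, at 1.47 to 2.24 against 3.33 to 5.61 in WT, and Elane and Cd14 were at most 0.317 in any library. The B-progenitor marker Il7r was 1963 to 2193 in Ebf1-KO and 1691 to 2020 in WT, with overlap. The sum of 9 OP9 stroma and fibroblast markers was 139 to 319.8 in WT, 19.8 to 109.9 in Ebf1-KO, with 52.1 to 213 in Pax5-KO. Of these markers 1 (Dcn) was at 0 in all 9 libraries. The sums of WT and Ebf1-KO did not overlap, and neither did Acta2, with 93.7 to 135 and 9.35 to 16.9. Fn1, Cxcl12, Col1a1, Col1a2 and Pdgfra overlapped between these groups and were not called in Ebf1-KO (limma adjusted p = 0.16 to 0.82). Erythroid and megakaryocyte markers summed to 5.89 to 9.51, 41.8 to 55.4 and 10.8 to 16.5, and hepatocyte markers to at most 2.13. In bulk libraries a change in the mix of cells cannot be told apart from a change per cell, and the part of these cell types in the results was not tested. Xist, expressed from the inactive X chromosome, was 41026 to 47861 in the Ebf1-KO RNA libraries and at most 42.8 in the others, while the Y-linked Ddx3y was 0.517 to 2.75 against 611 to 1081. The labels name no sex, and genotype and sex cannot be told apart in comparisons with Ebf1-KO.

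Of 2020 sites whose sequence was scanned, 317 (15.7%) held the EBF palindrome TCCCNNGGGA, where N is any base. The windows that follow are those of sites on which the results below turn, each 30 bases of the plus strand of GRCm38 (the same assembly as mm10) centred on the palindrome, which is in capitals.
Ank2: agggccccacTCCCAAGGGAgccaactgac
Alpl: aggtcgtgggTCCCCAGGGAgcctgacctt
Gm266: ctcttctgccTCCCGGGGGAggtgggggaa
Cplx2: agagttcggtTCCCAAGGGAacccgagggt
Dok3: cccagtatgcTCCCCAGGGAggtcacatgc
Jag2: ctgctcttggTCCCAAGGGAgatactgcct
Mta3: tagaggggtgTCCCTGGGGAacagaagcag
Il2rb: tgcccagggcTCCCAGGGGAccacacaggg
Foxo1: tactgccgccTCCCGAGGGAaggcagcgcc
The Ank2 window is chr3:126998646-126998675, the Alpl window chr4:137796115-137796144 and the Gm266 window chr12:111486630-111486659, and these 3 sites lost accessibility in Ebf1-KO. Those of Cplx2 (chr13:54372008-54372037), Dok3 (chr13:55529378-55529407) and Jag2 (chr12:112930127-112930156) had lower values in Ebf1-KO than in WT without passing every scaling, and the Jag2 difference changed sign with quantile normalization (0.28). The Mta3 (chr17:83705847-83705876) and Il2rb (chr15:78494911-78494940) sites gained accessibility, and Foxo1 (chr3:52268235-52268264) was not called with the deposited scaling but was called higher with TMM and quantile normalization. The 10 capital letters were identical in Ank2, Cplx2 and Jag2, and of these 3 sites Ank2 was the one that fell under every scaling. A match is a description of the sequence, not a measured binding site.

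In the deposited annotation, 1467 sites (72.6%) were labelled promoter-TSS, 386 intron, 85 5′ UTR, 51 exon, 18 transcription end and 15 non-coding. The nearest gene was protein-coding for 1863 sites and a non-coding RNA for 86. A gene symbol was given for 1955 sites, which named 1939 genes, and 16 genes had more than 1 site, so these sites share a target. Sites lay upstream (1061) and downstream (958) of the start in near-equal number, 3 fell on it, and 550 lay within 100 bp. Starts on both strands within 1000 bp of the peak centre, the arrangement of divergent promoters, were found at 407 sites (20.1%) and at 13 (0.224%) of the 5791 EBF1-only peaks farther away. Each peak was 271 bp wide.

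The sites had the sequence of CpG-island promoters more often than that of distal EBF1 sites. The median GC content was 59.8% near starts and 49.1% farther away, against 54.6% in windows of the same length centred on 32812 RefSeq start sites (GRCm38.p6). The ratio of observed to expected CpG was above 0.6 at 1262 sites (62.5%), at 3.52% of the farther peaks and at 38.5% of RefSeq starts. The GC box GGGCGG, bound by SP factors, was in 45.1%, 7.60% and 35.2% of these windows. The ETS core CCGGAAGT, read by ETS-family activators, was in 7.28%, 0.553% and 3.64%. The EBF palindrome ran the other way among the bound peaks, with 15.7% near starts and 31.2% farther away, but both exceeded the 0.808% of RefSeq starts and the 0.532% of PAX5-only sites near starts. The RUNX string TGTGGT was in 13.9%, 26.7% and 14.9%, and the octamer ATGCAAAT, read by POU factors, in 1.04%, 3.47% and 1.23%. The CCAAT box CCAATCA was in 5.79%, 2.38% and 6.81%, and the E box CAGCTG in 15.9%, 23.9% and 16.5%. Both strands were searched, and no searched string contains another. Where a palindrome was present, it lay within 25 bp of the peak centre at 151 of 317 sites (47.6%), against 52.6% of those farther away.

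Sequence and signal graded with distance inside the 1000 bp limit. In the ranges up to 100 bp (550 sites), 250 bp (612), 500 bp (458) and 1000 bp (402), the share with the palindrome was 7.64%, 12.1%, 19.7% and 27.6%. The share with a CpG ratio above 0.6 was 81.6%, 76.0%, 52.4% and 26.9% over the same ranges. The median WT signal was 21.5, 18.8, 11.99 and 8.14 scaled tags, the Ebf1-KO median 17.6, 14.6, 8.82 and 4.76, and the Pax5-KO median 13.4, 11.7, 7.98 and 5.28. At the limit itself, the 55 sites 903 to 998 bp from a start had a median WT signal of 6.93 and a palindrome share of 34.5%, and the 38 EBF1-only sites 1005 to 1097 bp away had 5.91 and 34.2%. The members nearest the limit thus had values close to those of the peaks just outside it.

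**Figure D1:**
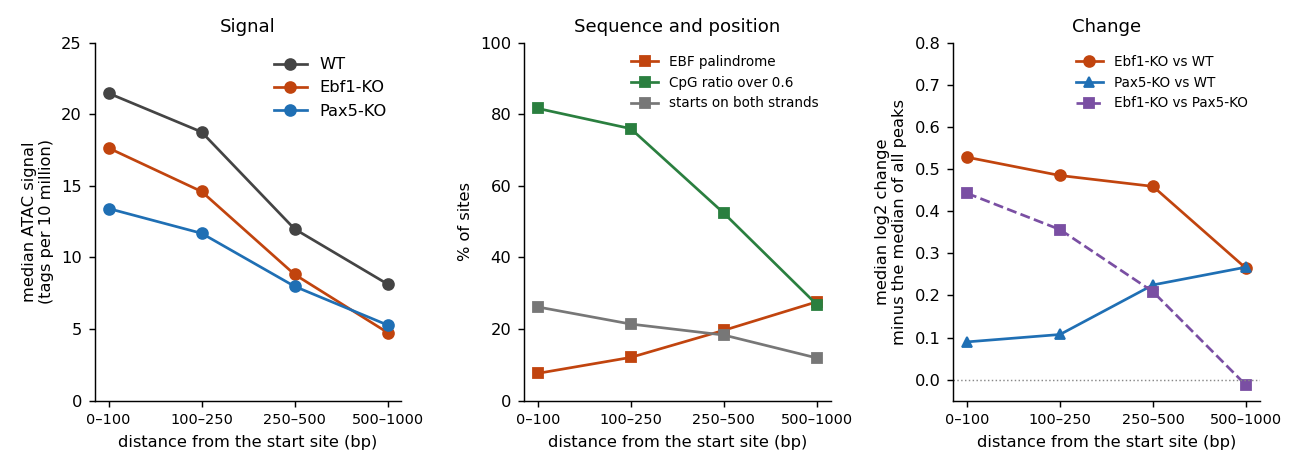
EBF1-only sites by distance from the nearest transcription start (x axis, 4 ranges in bp): median ATAC signal per genotype in scaled tags, the percent of sites with the EBF palindrome, with a CpG ratio over 0.6 and with starts on both strands, and the median log2 change minus that of all peaks in the 3 comparisons. Signal and CpG share are highest within 100 bp, and the palindrome share is highest (27.6%) beyond 500 bp.

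Sites near starts were the more accessible EBF1-only sites in every library. The median site had 18.3, 13.1 and 15.8 scaled tags in the WT libraries, 10.5, 12.1 and 13.1 in Ebf1-KO, with 9.12, 9.81 and 10.6 in Pax5-KO. Farther peaks had medians of 7.19, 5.41 and 6.21 in WT, 2.34, 2.12 and 1.92 in Ebf1-KO, with 3.88, 3.45 and 3.48 in Pax5-KO. The WT and Ebf1-KO libraries did not overlap in the farther peaks, and near starts they met, with 13.1 in the lowest WT and 13.1 in the highest Ebf1-KO library. A mean over the 9 libraries of at least 10 scaled tags was reached by 1242 sites (61.4%) near starts and by 969 (16.7%) farther away.

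A single scaling factor per library cancels in the share of EBF1-only tags that fell near starts, which was not computed after quantile normalization. It was 42.9, 43.0 and 42.6% in WT, 56.5, 58.4 and 58.7% in Ebf1-KO, with 45.7, 45.6 and 45.0% in Pax5-KO. The group means were 42.9% ± 0.175, 57.9% ± 1.22 and 45.4% ± 0.397 (SD, n = 3 libraries), and no 2 groups overlapped. Ebf1-KO exceeded WT by 15.02 percentage points and Pax5-KO by 12.5, and Pax5-KO exceeded WT by 2.56 points. Each of these 3 differences had an exact two-sided permutation p of 0.1, also after adjustment over the 3, and 0.1 is the smallest p that 3 libraries against 3 allow. The Pax5-KO difference was 1.44 points with a limit of 250 bp and 5.97 points as a share of the tags in all bound peaks.

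**Figure D2:**
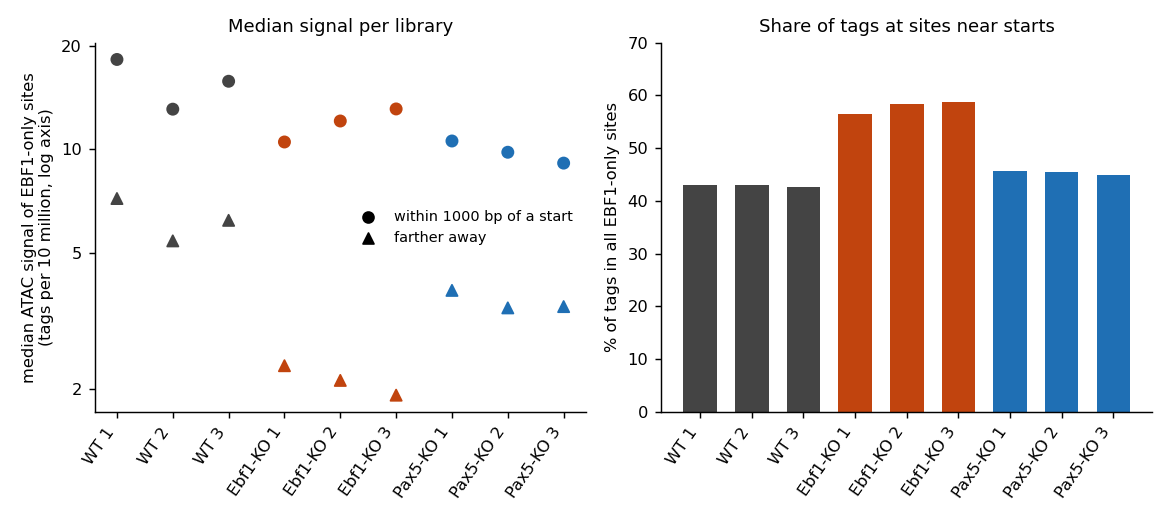
ATAC signal in each of the 9 libraries: the median EBF1-only site near and farther from a start site (scaled tags), and the percent of EBF1-only tags near starts. Near sites exceed farther ones in every library, and the 3 Ebf1-KO libraries have the highest shares, 56.5 to 58.7%.

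The comparison of Ebf1-KO with WT asks which of these sites differ in accessibility in cells deficient in the bound factor. Pax5 RNA was also lower in Ebf1-KO (8.53 to 15.7) than in WT (1314 to 1629), and lineage and sex markers differed. The part of each in the values was not tested. Under all 3 scalings tried (deposited, TMM and quantile), 61 sites fell and 28 rose, which is 3.02% and 1.38% of the 2022 sites, all of them tested. TMM and quantile normalization were computed over the bound peaks, so this rule cannot count a loss shared by most peaks. Over all 14365 tested peaks the same rule called 21.1% lower and 3.28% higher. Among farther EBF1-only peaks 1185 (20.5%) fell and 111 rose, among the 116 shared sites near starts 34 (29.3%) fell and 3 rose, and among the 376 PAX5-only sites near starts 24 fell and 16 rose. Peaks of a library are not replicates, so no test was made between these shares.

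With the deposited scaling alone, 445 sites were called lower and 28 higher (limma, Benjamini-Hochberg adjusted p under 0.05), against 51.1% and 3.28% of all peaks. TMM gave 108 lower and 966 higher and quantile normalization 79 and 959, so the direction of most sites was set by the scaling. In all comparisons, the share of all peaks called was computed only for the deposited scaling and for the rule of all 3 scalings. Counts under any other setting thus describe that setting and cannot be read against all peaks. The median difference of all peaks was -0.78, -0.10 and 0.19 log2 units under the 3 scalings in this comparison, -0.75, 0.03 and 0.17 for Pax5-KO against WT, and -0.02, -0.05 and 0.08 for Ebf1-KO against Pax5-KO. Changes below are therefore given on the log2(scaled value + 1) scale relative to the deposited-scaling median of all peaks, while each p tests the unshifted difference. The median site near a start stood 0.47 above the median of all peaks, and 82.7% of the sites stood above it. The same median was -0.09 for farther EBF1-only peaks, 0.38 for PAX5-only sites near starts and -0.20 for shared sites near starts. The 28 higher calls became 13 without the second Ebf1-KO library and 15 without the third.

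**Figure D3:**
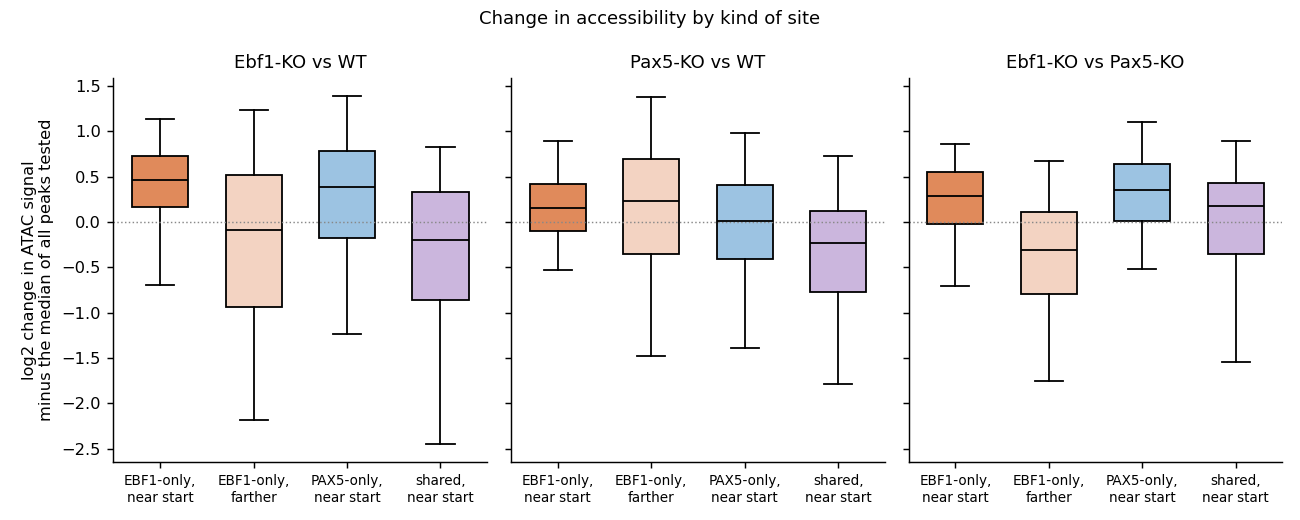
Change in ATAC signal (log2, relative to the median of all peaks; y axis) for EBF1-only sites near and farther from a start, PAX5-only sites near a start and shared sites near a start, in the 3 comparisons. Boxes are quartiles and whiskers the 5th to 95th percentile; in Ebf1-KO against WT, EBF1-only sites near starts have the highest median, 0.47.

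Sites that fell in Ebf1-KO included receptor, cytoskeletal and metabolic genes. Sites ranked by size here and below are those with a mean of at least 10 scaled tags over the 9 libraries and no overlap between the groups compared. Il5ra encodes the alpha chain of the interleukin-5 receptor, found on B-1 cells and eosinophils, and its site (chr6:106749150-106749420, promoter, -248 bp) held 116, 47.0 and 93.2 scaled tags in WT. It held 1.17, 0.61 and 2.24 in Ebf1-KO, with 4.94, 1.06 and 1.74 in Pax5-KO. Both knockouts lay far below WT and overlapped each other. The Il5ra site fell by 4.39 (SE 0.32, adjusted p = 7.9e-26) in Ebf1-KO and fell by 3.90 (adjusted p = 5.7e-23) in Pax5-KO.

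Ank2, an ankyrin that ties membrane proteins to the spectrin skeleton, had a palindrome 1.5 bp from the centre of its promoter peak (chr3:126998527-126998797, -210 bp). Its signal was 31.4, 18.2 and 31.3 in WT, 1.17, 1.21 and 1.60 in Ebf1-KO, with 5.64, 5.30 and 5.21 in Pax5-KO. The 3 groups did not overlap, in the order WT, Pax5-KO, Ebf1-KO. Ank2 fell by 2.77 in Ebf1-KO (SE 0.30, adjusted p = 2.3e-18) and fell by 1.35 in Pax5-KO (adjusted p = 6.4e-09).

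Pkib, an inhibitor of cyclic-AMP-dependent kinase, and Fut10, a fucosyltransferase, kept the same order of groups. The Pkib site (chr10:57631788-57632058, -58 bp) had 64.7, 25.6 and 50.8 scaled tags in WT, 3.50, 4.24 and 2.24 in Ebf1-KO, with 13.8, 12.5 and 6.08 in Pax5-KO. The Fut10 site (chr8:31187250-31187520, +54 bp) had 47.7, 21.1 and 28.5, then 4.67, 0.91 and 2.56, then 16.2, 10.3 and 6.08. Pkib fell by 2.62 (SE 0.29, adjusted p = 1.9e-18) and Fut10 fell by 2.45 (SE 0.31, adjusted p = 4.9e-16) in Ebf1-KO. Against WT in Pax5-KO, Pkib fell by 1.26 (adjusted p = 5.9e-09), and Fut10 was not called under every scaling (change -0.76). Fut10 was the CpG-rich exception among these falls, with a CpG ratio of 0.74 where Il5ra had 0.13 and Ank2 0.11.

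The other large falls were 1700027J07Rik (change -3.27, adjusted p = 2.4e-23), Lhfpl1 (-3.24, 2.2e-20), the cytochrome P450 gene Cyp2j9 (-3.21, 6.8e-22) and Ugt1a6a (-2.79, 3.3e-18), a glucuronosyltransferase. The signal at 1700027J07Rik was 47.0, 39.0 and 38.3 in WT, 1.56, 1.82 and 1.28 in Ebf1-KO, with 7.76, 8.75 and 13.03 in Pax5-KO. At Cyp2j9 it was 65.3, 32.5 and 44.3, then 1.95, 2.72 and 1.28, then 11.3, 6.63 and 4.78. At Ugt1a6a it was 27.4, 15.95 and 22.8, then 1.17, 0.61 and 0.96, then 13.8, 6.63 and 7.82. All 3 sites had Pax5-KO between the other groups without overlap. Lhfpl1 is X-linked, and it had 45.1, 24.8 and 33.7 in WT, 0.91 to 1.56 in Ebf1-KO, with 2.17 to 6.36 in Pax5-KO, whose Xist and Ddx3y RNA levels were like those of WT.

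Rises in Ebf1-KO were smaller. Mta3, a subunit of the NuRD chromatin-remodelling complex, had 11.1, 7.41 and 5.70 scaled tags in WT, 12.9, 20.9 and 16.3 in Ebf1-KO, with 19.8, 12.5 and 16.1 in Pax5-KO at its promoter site (chr17:83705715-83705985, -313 bp). Both knockouts stood above WT. Mta3 rose by 1.76 (SE 0.27, adjusted p = 0.0014) in Ebf1-KO and by 1.68 (adjusted p = 0.0027) in Pax5-KO. Gm5122, a predicted gene, had the largest rise, 2.36 (adjusted p = 4.2e-07), from 4.57, 5.70 and 6.47 to 18.7, 16.6 and 20.5. Zc3h12a encodes an RNase that degrades cytokine mRNAs, and its site had 13.1, 9.69 and 9.32 in WT, 22.6, 19.97 and 22.7 in Ebf1-KO, with 8.82, 13.5 and 9.12 in Pax5-KO. Only the Ebf1-KO libraries of Zc3h12a were high, and it rose by 1.75 against WT (adjusted p = 0.0012) and by 1.03 against Pax5-KO (adjusted p = 0.0028).

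The actin-binding Twf2 rose by 1.70 (adjusted p = 0.0016), from 18.9, 13.7 and 15.02 in WT to 31.2, 26.6 and 34.9. Aste1 rose by 1.81 (adjusted p = 6.1e-04), from 23.5, 14.2 and 23.8 to 32.3, 44.2 and 51.9. In both, the WT and Ebf1-KO libraries did not overlap. Amn1 (1.61, adjusted p = 0.009), the centriole-capping gene Ccp110 (1.60, 0.008) and E130311K13Rik (1.59, 0.0069) also rose. The call of Amn1 was lost without the third Ebf1-KO library, and those of Ccp110 and E130311K13Rik without the second WT library.

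**Figure D4:**
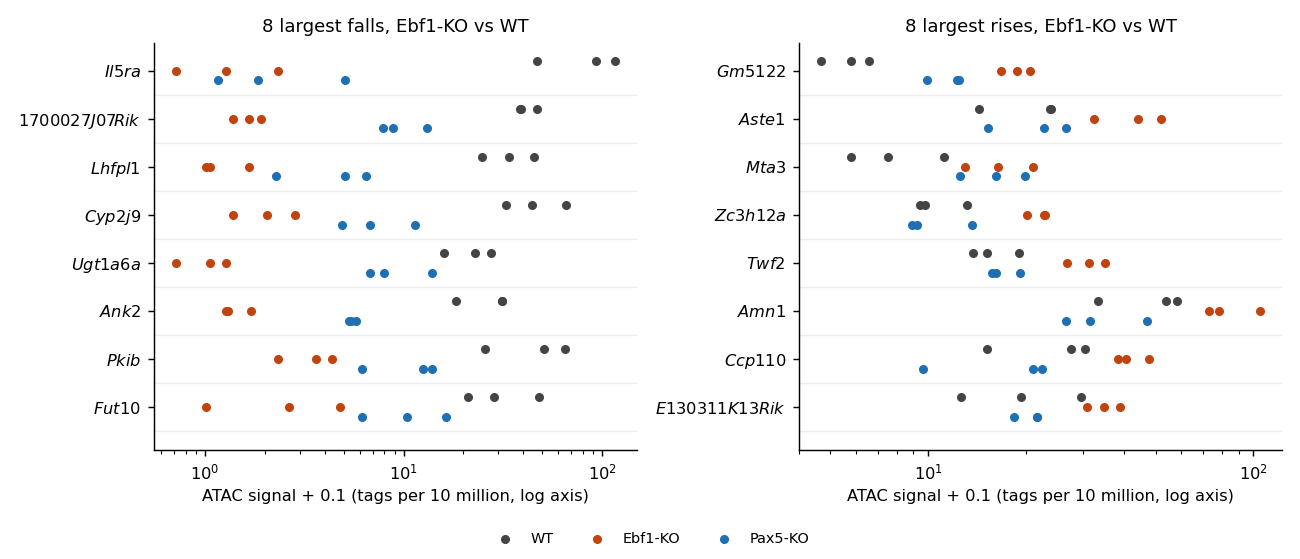
Signal of named sites in each ATAC library (scaled tags + 0.1, log axis), with points for the 3 libraries of WT, Ebf1-KO and Pax5-KO. At Il5ra the WT points are 47.0 to 116 and the knockout points at most 4.94; at Mta3 both knockouts lie above WT.

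Falls were unequal among the sites by CpG ratio and by the deposited peak score, whose scale is not described in the sources used here. Of the 758 sites with a CpG ratio of at most 0.6, 48 (6.33%) fell in Ebf1-KO, and of the 1262 above it 13 (1.03%) fell. None of the 147 sites with an ETS core fell, and 4 (2.72%) rose, but 90.5% of these sites had a CpG ratio above 0.6. By score, 12 (1.66%) of the sites up to 8.53, 11 (1.74%) of the middle range and 38 (5.71%) of those above 14 fell. Sites with the palindrome had a median score of 17.3 against 9.78 without it, and less signal, with a WT median of 9.76 against 17. Of these 317 sites 12 (3.79%) fell in Ebf1-KO, as did 49 (2.87%) of the 1705 without. Both shares lie near the 3.02% of all the sites. Across the sites, the change in Ebf1-KO had a Pearson correlation of -0.252 with the log2 score and 0.280 with the CpG ratio, and the log2 WT signal had one of 0.416 with the CpG ratio. These points share libraries and base composition, so the values are descriptions.

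The sites with the extreme scores were not called under every scaling in Ebf1-KO. Smpd3, a neutral sphingomyelinase, had the highest score, 143.8, and 54.9, 45.6 and 44.0 scaled tags in WT, 35.0, 46.9 and 45.1 in Ebf1-KO, with 30.3, 22.8 and 23.9 in Pax5-KO. WT and Ebf1-KO overlapped, and the change was 0.59 (adjusted p = 0.58). Nxnl2 had the lowest score, 5.02, with 4.56 to 6.53, 4.54 to 6.62 and 5.04 to 8.82 in the groups.

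The 4 sites of highest mean signal were those of Hjurp, Etfdh, M6pr and Ppp2r1a. Hjurp, the chaperone that loads the centromeric histone, had 121, 179 and 233 scaled tags in WT, 153, 182 and 209 in Ebf1-KO, with 98.2, 122 and 193 in Pax5-KO. Etfdh, which feeds electrons from fatty-acid oxidation into the respiratory chain, had 172, 83.8 and 138 in WT, 100.1, 96.8 and 144 in Ebf1-KO, with 80.8, 63.6 and 49.1 in Pax5-KO. M6pr, a receptor that sorts lysosomal enzymes, and Ppp2r1a, the scaffold of phosphatase 2A, had group means of 112 ± 27 and 127 ± 44.4 in WT and 139.7 ± 9.12 and 108 ± 17.7 in Ebf1-KO (SD, n = 3). None of these 4 sites was called in Ebf1-KO against WT under every scaling, with adjusted p of 0.35 to 0.89 with the deposited scaling. Etfdh was called higher in Ebf1-KO with TMM (0.73, limma adjusted p = 3.3e-04) and not with quantile normalization. In Pax5-KO against WT it was called lower with the deposited scaling (limma adjusted p = 0.0052) and not with TMM or quantile normalization.

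Gene lists for housekeeping functions, chosen with earlier results known, had no call under every scaling in Ebf1-KO, where 3.02% of all the sites fell and 1.38% rose, shares that leave few calls for lists of this size. This held for the 9 cytosolic and 9 mitochondrial ribosomal protein sites, the 15 respiratory chain, 9 proteasome, 8 translation factor and 15 splicing factor sites. Their median changes relative to all peaks were 0.53, 0.64, 0.37, 0.47, 0.39 and 0.49, beside 0.47 for all the sites. Of 53 zinc finger gene sites 1 fell and 1 rose, and of 28 solute carrier sites 1 fell (medians 0.44 and 0.50).

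Few genes of the lineage lists had a site near their start, and few of all genes did, 1938 of 24072 with RNA values. Whether the lists differ from all genes was not tested. Of 35 listed genes of the pre-B and B cell receptors 3 had a site (Dok3, Fyn and Lyn), of 34 B-lineage transcription factors 2 (Foxo1 and Cbfb), of 20 T-lineage genes 1 (Zap70), of 18 NK and innate lymphoid genes 2 (Id2 and Il2rb), and of 22 myeloid genes none. Over the whole lists, most of whose genes have no site here, 24 of 33 tested pre-B genes fell and 4 rose in RNA in Ebf1-KO, 16 of 32 B-lineage factors fell and 6 rose, and 14 of 16 T-lineage and 15 of 15 NK genes rose, where all genes tested fell at 14.4% and rose at 27.7%. Of the 8 lineage sites only Il2rb was called under every scaling in Ebf1-KO against WT.

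Il2rb encodes the beta chain of the receptors for interleukin-2 and interleukin-15, which NK cells need, and had 2 palindromes at its promoter (chr15:78494851-78495121). Its signal was low, 0.65, 1.42 and 2.33 in WT, 3.89, 3.33 and 2.56 in Ebf1-KO, with 4.23, 5.04 and 4.34 in Pax5-KO. Both knockouts lay above WT. Il2rb rose by 1.62 in Ebf1-KO (SE 0.36, adjusted p = 0.045, lost on leaving out each of several libraries) and by 1.97 in Pax5-KO (adjusted p = 0.0031). Its RNA was 0.159 to 0.704 in WT, 507 to 692 in Ebf1-KO, with 24.7 to 59.8 in Pax5-KO.

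Dok3 is an adaptor that dampens B cell receptor signals. Its site (chr13:55529256-55529526, -853 bp) had 20.3, 13.1 and 17.6 in WT, 3.50, 5.14 and 4.48 in Ebf1-KO, with 10.6, 7.69 and 7.82 in Pax5-KO. The groups did not overlap, and the site fell by 0.83 in Ebf1-KO against Pax5-KO (adjusted p = 0.021, lost on leaving out single libraries). Dok3 RNA was 77.4, 84.5 and 88.0 in WT, 46.5, 41.4 and 43.5 in Ebf1-KO, with 154, 137 and 199 in Pax5-KO, so it was lowest in Ebf1-KO and highest in Pax5-KO.

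Foxo1, a factor that drives Rag and Il7r expression in B progenitors, had 17.6, 10.5 and 16.3 scaled tags in WT, 12.9, 13.9 and 11.2 in Ebf1-KO, with 10.6, 11.4 and 7.38 in Pax5-KO at its CpG-rich promoter site (chr3:52268133-52268403). The groups overlapped and the site was not called with the deposited scaling (adjusted p = 0.58 in Ebf1-KO). In Ebf1-KO against WT the site was called higher with TMM (0.65, limma adjusted p = 0.013) and quantile normalization (0.79, adjusted p = 0.0047). Foxo1 RNA was 1581, 2583 and 2730 in WT, 34.1, 34.4 and 32.1 in Ebf1-KO, with 529.5, 669 and 777 in Pax5-KO, with no overlap. It fell by 6.32 relative to all genes in Ebf1-KO (SE 0.20, adjusted p = 1.1e-12) and fell by 2.06 in Pax5-KO (adjusted p = 2.4e-06).

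Zap70, a kinase of T cell receptor signalling, and Id2, an antagonist of E proteins, had WT signals of 10.8 to 16.3 and 6.99 to 10.8, above the 6.08 to 6.96 and 2.12 to 4.16 of Ebf1-KO, but neither was called under every scaling. With quantile normalization the Zap70 difference turned to 0.27 and the Id2 difference was -0.05 (limma adjusted p = 0.42 and 0.90), so these data do not settle a direction for either site. Zap70 RNA was 0, 0.352 and 0.476 in WT, against 69.8, 92.0 and 113 in Ebf1-KO, and Id2 RNA was 7.01, 5.28 and 6.34 and then 205, 306 and 341. Lmo2, an adaptor of stem-cell and T-leukaemia transcription complexes, had 9.15, 6.27 and 8.29 scaled tags in WT, against 3.50, 5.45 and 4.48 in Ebf1-KO (not called, and 0.57 with quantile normalization), and its RNA was 58.9 to 90.9 in WT, 120 to 257 in Ebf1-KO, with 337 to 373 in Pax5-KO.

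DNA-repair and other lists added a few sites. Lig4, the ligase that seals V(D)J breaks, had an intron site (chr8:9975291-9975561, +897 bp) with 55.5, 25.9 and 35.7 scaled tags in WT, 1.95, 3.63 and 4.16 in Ebf1-KO, with 3.53, 2.12 and 4.34 in Pax5-KO. The knockouts overlapped each other and lay far below WT. Lig4 fell by 2.43 in Ebf1-KO (SE 0.30, adjusted p = 2.2e-16) and fell by 2.43 in Pax5-KO (adjusted p = 7.0e-16). Its RNA was 305, 308 and 343 in WT, 61.6, 48.4 and 55.01 in Ebf1-KO, with 67.5, 76.4 and 96.3 in Pax5-KO, and it fell by 2.83 and then fell by 2.27 relative to all genes.

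Xrcc4, the partner of that ligase, had 16.99, 10.5 and 15.8 in WT, 5.45, 8.47 and 7.68 in Ebf1-KO, with 7.41, 7.16 and 3.91 in Pax5-KO, was not called under every scaling and turned to 0.23 in Ebf1-KO with quantile normalization. None of the 3 cytokine, 7 cell cycle, 4 adhesion, 4 interferon and 6 chromatin sites was called under every scaling in either knockout against WT. Of these lists' tested genes, 3 of 31 cytokine, 12 of 40 cell cycle, 4 of 22 adhesion, 3 of 23 interferon and 7 of 46 chromatin genes fell in RNA in Ebf1-KO, and 18, 5, 16, 12 and 9 rose, beside 14.4% and 27.7% of all genes. The lists differ in size, and the shares that fell in the interferon and chromatin lists lie near that of all genes. The sites named for them were Stat5b, Ccna2, Itga6, Irf9 and Smarcc1, with WT means of 3.30 ± 0.56, 72.5 ± 18.6, 6.03 ± 1.29, 17.5 ± 1.75 and 27.1 ± 5.74 and Ebf1-KO means of 1.27 ± 0.79, 59.3 ± 12.4, 2.65 ± 0.48, 19.2 ± 3.92 and 21.8 ± 3.64 (SD, n = 3).

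Pax5-KO against WT asks what the loss of a factor that these tables do not list at the sites does to them. Ebf1 RNA was also lower in Pax5-KO than in WT, and the part of each factor in the values was not tested. Under all 3 scalings 49 sites (2.42%) fell and 11 (0.54%) rose, where 18.8% and 2.11% of all peaks did. With the deposited scaling 919 were called lower and 11 higher (51.5% and 2.11% of all peaks). TMM gave 58 and 360 and quantile normalization 52 and 729. Among farther EBF1-only peaks 620 (10.7%) fell and 184 rose. The median site stood 0.15 above all peaks, farther EBF1-only peaks 0.23, PAX5-only sites near starts 0.01 and shared ones -0.23. The 919 became 604 without the first WT library, the 49 became 30 without the third, and the 11 became 7 without the first Pax5-KO library.

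Among sites with a mean of at least 10, the largest falls in Pax5-KO were Il5ra, Lig4, Lhfpl1 and Cyp2j9, all given above with Ebf1-KO, and the 2 comparisons share the WT libraries. Besides Gm5122, Mta3 and Il2rb, a rise was seen at Ifitm1, an interferon-induced membrane protein that restricts viruses. Ifitm1 had 13.7, 6.27 and 10.1 scaled tags in WT, 10.5, 16.6 and 17.9 in Ebf1-KO, with 25.4, 14.6 and 17.8 in Pax5-KO. The Pax5-KO libraries were all above WT, and it rose by 1.65 (SE 0.28, adjusted p = 0.0041). In Ebf1-KO its change was 1.35 (adjusted p = 0.076), with overlap. Ifitm1 RNA was 33.4, 24.3 and 23.5 in WT, 1153, 1026 and 1245 in Ebf1-KO, with 2638, 3051 and 5193 in Pax5-KO.

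The knockouts were also compared directly. Ebf1-KO was lower than Pax5-KO at 51 sites (2.52%) and higher at 70 (3.46%) under all 3 scalings, against 9.76% and 6.44% of all peaks. With the deposited scaling the counts were 74 and 219 (12.6% and 9.06% of all peaks), with TMM 107 and 457 and with quantile normalization 78 and 84. Among farther EBF1-only peaks 960 (16.6%) were lower and 122 (2.11%) higher. The median site stood 0.29 above all peaks and farther EBF1-only peaks -0.31. The 70 higher calls became 32, 30 and 27 without the first, the second and the third Ebf1-KO library, the 219 became 87 and 47 without the second and the third, and 90 and 86 without the second and the third Pax5-KO library. The 74 lower calls became 48 without the first Pax5-KO library.

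Sequence graded this comparison too. Palindrome sites were lower in Ebf1-KO at 20 of 317 (6.31%) and others at 31 of 1705 (1.82%). Within the CpG-poor sites 17 of 166 (10.2%) with a palindrome and 25 of 592 (4.22%) without were lower. Within the CpG-rich sites 3 of 151 (1.99%) with and 6 of 1111 (0.54%) without were lower. The 10.2% lies near the 9.76% of all peaks. Median changes were -0.05 with and 0.34 without a palindrome, and 0.44, 0.36, 0.21 and -0.01 over the 4 distance ranges. Among sites with a mean of at least 10, the largest falls were Ugt1a6a (-2.37, adjusted p = 7.8e-10), 1700027J07Rik (-2.04, 4.3e-09), Fut10 (-1.70, 5.8e-06) and a site with no gene symbol (chr7:105568909-105569179). That site had 26.1, 17.1 and 22.3 scaled tags in WT, 1.17, 1.82 and 2.88 in Ebf1-KO, with 19.0, 13.8 and 11.7 in Pax5-KO.

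Among sites with a mean of at least 10, those higher in Ebf1-KO than in Pax5-KO were led by Ccp110, Amn1, Krr1 and Topors. Krr1, a factor of small ribosomal subunit assembly, had 55.5, 31.1 and 38.6 in WT, 43.6, 47.8 and 62.7 in Ebf1-KO, with 32.1, 20.4 and 15.6 in Pax5-KO. Topors, a ubiquitin and SUMO ligase, had 24.2, 11.4 and 21.2, then 19.1, 19.7 and 26.6, then 9.52, 9.01 and 8.25. In both, Ebf1-KO overlapped WT and did not overlap Pax5-KO, and each stood 1.21 higher in Ebf1-KO than in Pax5-KO (adjusted p = 5.1e-04 and 4.1e-04). Ccp110 and Amn1 stood 1.32 (adjusted p = 1.5e-04) and 1.31 (2.3e-04) higher. The cyclin gene Ccna2 stood 1.03 higher (adjusted p = 0.0049), with 48.7, 56.3 and 73.0 against 39.1, 30.5 and 19.6, and lost its call without the third library of either knockout.

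Of the 36 X-linked sites 6 (16.7%) were higher in Ebf1-KO than in Pax5-KO, and of 1985 autosomal sites 64 (3.22%) were, with median changes of 0.51 and 0.28. Lower in Ebf1-KO were 3 X-linked (8.33%) and 48 autosomal sites (2.42%), and against WT 3 X-linked sites fell in Ebf1-KO and 1 rose. Those named among the higher ones were Pbdc1, Ddx3x, Jpx, Upf3b and Tceanc, picked after their values were seen. Pbdc1 had 8.49, 7.41 and 6.21 in WT, 15.2, 15.4 and 20.8 in Ebf1-KO, with 7.05, 4.77 and 3.48 in Pax5-KO. Jpx, a non-coding activator of Xist, had 5.23, 3.70 and 4.92, then 5.45, 6.05 and 8.0, then 3.17, 2.92 and 1.74. Both were highest in Ebf1-KO without overlap, and here sex and genotype cannot be told apart.

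RNA was compared in the same way for the genes named at these sites. The percent called over all genes is given beside the counts under all 3 scalings and with the deposited scaling. It was not computed for TMM, quantile normalization or the replicate block alone, so those counts cannot be read against all genes. Of 1781 tested genes with a site, 248 (13.9%) fell and 437 (24.5%) rose in Ebf1-KO under all 3 scalings, against 14.4% and 27.7% of all 12839 genes tested. In Pax5-KO 188 (10.6%) fell and 363 (20.4%) rose, against 11.9% and 22.8%. Between the knockouts 223 (12.5%) were lower in Ebf1-KO and 244 (13.7%) higher, against 13.2% and 17%. With the deposited scaling the counts were 248 and 705 (14.4% and 40.8% of all genes), 188 and 592 (11.9% and 34.7%), and 225 and 249 (13.3% and 17.5%). With TMM they were 501 and 497, 426 and 433, and 354 and 340, and with quantile normalization 541 and 461, 493 and 377, and 342 and 357. With the replicate number as a block and the deposited scaling, they were 306 and 928, 258 and 867, and 339 and 404. The median of all genes under the 3 scalings was 0.31, 0.01 and -0.05 in Ebf1-KO, with 0.28, 0.04 and -0.04 in Pax5-KO and 0.05, -0.002 and 0.01 between the knockouts. RNA changes are given relative to the deposited-scaling median.

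Where a site fell, its gene mostly fell too. Of 50 tested genes whose site fell in Ebf1-KO, 35 (70%) fell in RNA and 3 rose, and of 1708 genes whose site did neither 213 (12.5%) fell. Of 39 genes whose site fell in Pax5-KO 23 (59.0%) fell, against 9.51%, and of 38 whose site was lower in Ebf1-KO than in Pax5-KO 28 (73.7%) were lower, against 11.3%. Of 24 tested genes whose site rose in Ebf1-KO 7 (29.2%) rose and none fell, beside 25% rising among genes whose site did neither. Of 7 whose site rose in Pax5-KO 4 (57.1%) rose, against 20.5%, and of 63 whose site was higher in Ebf1-KO than in Pax5-KO 9 (14.3%) were higher and 5 lower, against 13.9% higher. Read from the gene, 73 genes with a site fell at least 8-fold in Ebf1-KO, and the site fell at 23 of them and was called lower with the deposited scaling at 52. In Pax5-KO 33 genes fell at least 8-fold, and the site fell at 11. Across 1795 sites with a tested gene, the ATAC and RNA changes had a Pearson correlation of 0.417 and a Spearman correlation of 0.179 in Ebf1-KO (0.368 and 0.202 in Pax5-KO), given as descriptions because the points share libraries. Genes whose site held a palindrome fell in RNA at 59 of 258 (22.9%) in Ebf1-KO, and the others at 189 of 1523 (12.4%). Genes with a CpG-rich site fell at 127 of 1174 (10.8%), and those with a CpG-poor site at 121 of 607 (19.9%).

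**Figure D5:**
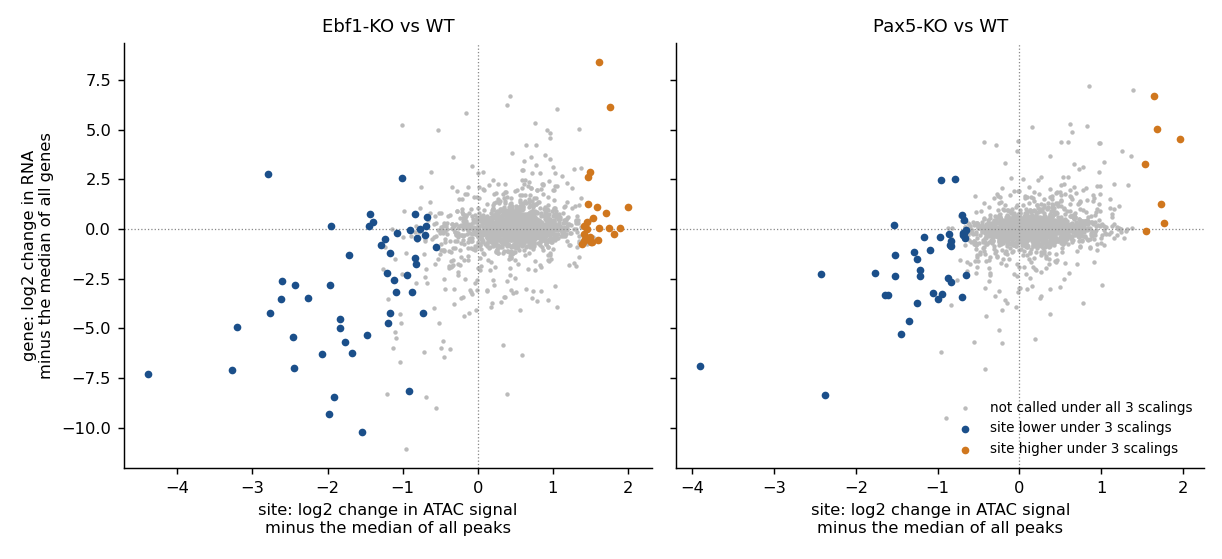
Change of each site (x axis, log2 relative to all peaks) against the change of its gene in RNA (y axis, log2 relative to all genes), in Ebf1-KO and in Pax5-KO against WT; coloured points are sites called under all 3 scalings and grey points are the others. Of 50 genes whose site fell in Ebf1-KO, 35 fell in RNA, and many genes fell with a site in grey.

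The deepest RNA falls in Ebf1-KO joined sites of low or middling accessibility. Cplx2, a complexin that regulates vesicle fusion, had 2011, 2409 and 2696 scaled reads in WT, 0.55, 0.366 and 0.172 in Ebf1-KO, with 38.2, 52.9 and 74.2 in Pax5-KO. The 3 groups were far apart, and Cplx2 RNA fell by 11.1 in Ebf1-KO (SE 0.23, adjusted p = 1.9e-14) and fell by 5.72 in Pax5-KO (adjusted p = 4.4e-11). Its intron site (chr13:54371884-54372154, +670 bp) had 11.8, 11.1 and 10.6 scaled tags in WT, 1.17, 3.33 and 4.16 in Ebf1-KO, with 5.64, 4.24 and 6.08 in Pax5-KO. WT stood above both knockouts, but the site was not called under every scaling.

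Alpl, the tissue-nonspecific alkaline phosphatase, had RNA of 889, 1029 and 1097 in WT, 0, 0 and 0.172 in Ebf1-KO, with 0.285, 1.27 and 0.561 in Pax5-KO. Its site (chr4:137795892-137796162, intron) went from 15.7, 11.1 and 13.2 scaled tags to 0.78, 1.82 and 3.52 in Ebf1-KO, with 3.53, 2.92 and 4.34 in Pax5-KO. Gene and site were near 0 or low in both knockouts, and the site fell by 1.55 in Ebf1-KO (adjusted p = 3.2e-09). Clgn, an endoplasmic reticulum chaperone, had RNA of 703, 629 and 651 in WT, 0.55, 0.366 and 0 in Ebf1-KO, with 377, 357 and 379 in Pax5-KO. Its site had 24.2, 12.5 and 15.3, then 0.39, 3.33 and 1.92, then 9.52, 11.7 and 6.52. Clgn was thus near 0 only in Ebf1-KO, with an RNA change of -8.22 against Pax5-KO (adjusted p = 1.3e-13) and a site change of -1.92 (adjusted p = 8.2e-07).

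Edaradd, a death-domain adaptor of the ectodysplasin receptor, had RNA of 1294 to 1386 in WT, 1.83 to 2.76 in Ebf1-KO, with 25.9 to 35.6 in Pax5-KO. The X-linked Egfl6, a secreted protein with EGF-like repeats, had 277 to 350 in WT, 0 to 0.366 in Ebf1-KO, with 0 to 0.57 in Pax5-KO, and its exon site had 18.8 to 24.8, 1.60 to 3.33 and 1.33 to 1.74 scaled tags. Bcar3, an adaptor of integrin signalling, had RNA of 320 to 378 in WT, 0.275 to 0.517 in Ebf1-KO, with 1.90 to 2.58 in Pax5-KO. Egfl6 and Bcar3 were near 0 in both knockouts, and Edaradd kept more in Pax5-KO.

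Gm266 RNA was 66.7, 59.2 and 56.9 in WT, 0 in all 3 Ebf1-KO libraries and 0, 0 and 0.112 in Pax5-KO. At its site, the signal was 7.84, 11.7 and 12.7 in WT, 1.17, 1.21 and 0.96 in Ebf1-KO, with 2.82, 2.65 and 2.17 in Pax5-KO, and the site fell by 1.67 in Ebf1-KO (adjusted p = 2.5e-09). Among the sites with the largest falls, Il5ra RNA was 239, 185 and 213 in WT, 0.55, 0.733 and 0.69 in Ebf1-KO, with 1.42, 1.27 and 0.898 in Pax5-KO. Fut10 RNA was 81.6, 114 and 121 in WT, 0 in all 3 Ebf1-KO libraries and 21.4, 21.9 and 18.8 in Pax5-KO. At Fut10, site and RNA were in the same order, lowest in Ebf1-KO and intermediate in Pax5-KO.

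RNA rises joined a wider range of sites. Mta3 RNA was 7.57, 9.51 and 5.39 in WT, 746, 680 and 782 in Ebf1-KO, with 299, 295 and 418 in Pax5-KO, beside its rising site. It rose by 6.16 (adjusted p = 5.6e-13) in Ebf1-KO and by 5.05 (adjusted p = 1.0e-11) in Pax5-KO. F2r, a thrombin receptor, had RNA of 5.05, 8.45 and 6.82 in WT, 1100, 882 and 966 in Ebf1-KO, with 124, 134 and 164 in Pax5-KO. Its site was already open in WT, with 30.7, 21.1 and 20.2 scaled tags against 16.7, 17.6 and 20.8 in Ebf1-KO. The site was not called with the deposited scaling (adjusted p = 0.27) or quantile normalization, and was called higher with TMM (0.51, limma adjusted p = 0.029). Gsn, the actin-severing gelsolin, had RNA of 0.841 to 3.52 in WT and 181 to 296 in Ebf1-KO with at most 2.59 scaled tags at its site in either group. The integrin gene Itga8 had 0, 0 and 0.159 in WT and 77.3, 89.8 and 90.9 in Ebf1-KO, with site values of 4.27 to 10.4 and 7.56 to 9.60. Among genes that rose at least 8-fold in Ebf1-KO (25), the site rose at 2, Il2rb and Mta3.

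Some genes rose mainly in Pax5-KO. Emp1, an epithelial membrane protein, had RNA of 14.6, 13.03 and 9.36 in WT, 309, 315 and 296 in Ebf1-KO, with 2135, 2241 and 2804 in Pax5-KO, while its site stayed at 0.96 to 3.48 scaled tags in all 9 libraries. The Notch ligand Jag2 had RNA of 1.68, 1.06 and 2.70 in WT, 13.2, 8.06 and 6.04 in Ebf1-KO, with 214, 83.7 and 120 in Pax5-KO, with a site of 7.19, 9.69 and 8.03, then 2.73, 4.24 and 4.16, then 7.41, 7.16 and 7.82. On the deposited scale the Jag2 site was low in Ebf1-KO alone, but the difference from WT turned to 0.28 with quantile normalization, and its RNA was highest in Pax5-KO. Clic5, an intracellular chloride channel protein, was at 0 in WT RNA, 1.38 to 2.93 in Ebf1-KO, with 129 to 175 in Pax5-KO, and Bmp8a, a bone morphogenetic protein, at 0 to 0.476, 1.10 to 2.59 and 38.7 to 56.7. With the deposited scaling neither site was called in Pax5-KO against WT (adjusted p = 0.081 for Clic5 and 0.85 for Bmp8a). Both were called higher with TMM (1.41 and 0.86, limma adjusted p = 3.1e-04 and 0.022). Quantile normalization also called both higher (1.63 and 1.05, limma adjusted p = 6.7e-05 and 0.0057), so the call depended on the scaling.

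A few sites and genes moved in opposite directions, and they are named because their number is small. In Ebf1-KO the sites of Dll1, Rassf2 and Ugt1a6a fell and their RNA rose. Dll1, a Notch ligand, had 18.3, 13.4 and 22.8 scaled tags in WT and 4.28, 4.24 and 4.80 in Ebf1-KO, with RNA of 0 to 1.12 in WT and 9.07 to 10.0 in Ebf1-KO. Ugt1a6a RNA was 5.89, 3.88 and 3.65 in WT, 37.7, 42.9 and 52.3 in Ebf1-KO, with 124, 137 and 143 in Pax5-KO, and reads over the exons it shares with other Ugt1a genes cannot be assigned to 1 start. In Pax5-KO the same opposition held at Angptl4, Dhodh and Ppp1r3b. Ezr, which links actin to the membrane, was lower at its site and higher in RNA in Ebf1-KO than in Pax5-KO, with 3.50, 6.66 and 8.96 against 9.88, 12.7 and 9.99 scaled tags and RNA of 2348 to 2740 against 1305 to 1477. The reverse was found at 5 genes (Btbd10, Dnajc13, Fam208a, Kctd12 and Tlr9). Tlr9, a sensor of unmethylated DNA, had 13.6, 20.3 and 22.1 scaled tags in Ebf1-KO, with 9.17, 5.57 and 9.12 in Pax5-KO, with RNA of 38.8 to 46.5 and 67.2 to 84.3.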

How the data were processed

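ATAC-seq and RNA-seq were analysed in 9 libraries each (WT, Ebf1-KO and Pax5-KO, 3 per group). The submitters' processing notes name Bowtie2, TopHat, HOMER, edgeR and DESeq2 and the build mm10 (GRCm38), with versions and roles not given in the sources used here. Per the file headers, the authors counted ATAC tags per peak with HOMER annotatePeaks and exon reads per gene with HOMER analyzeRepeats, and the deposited signal is these counts scaled to 10 M per library, with no correction for gene length. The peak score is deposited by the authors, on a scale for which these sources give no unit. Distance, annotation and gene symbol are also deposited, and the gene is the nearest start, not a shown target. Scaled values returned whole tags within 0.1 tags for 100% of ATAC and 100% of RNA values, so reads and RNA depth could be recovered.

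Here log2(value + 1) was fitted with limma 3.58.1 (trend; R 4.3.3) over 9 libraries and all 14365 peaks with at least 10 tags, or 12839 genes, with Benjamini-Hochberg adjustment and a two-sided threshold of 0.05. "Fell" and "rose" mean the same call under the deposited scaling, TMM (edgeR 4.0.16) and quantile normalization. That rule, the tag shares and the X-chromosome split were added after the data were seen. Further alternatives were edgeR and DESeq2 1.42.0 on recovered reads, pseudocounts of 0.5 and 5, no filter, 2 groups only, a replicate block, a 250 bp limit and leaving out each library. The script was tested on simulated data. RNA libraries with the same replicate number in their titles deviated together in all 9 pairs (r 0.116 to 0.440), and unlike numbers were not compared. The reported RNA values come from a fit that ignores this possible pairing. A fit with the replicate number as a block is given as an alternative. Sequences were read from GRCm38 with Python 3.11.15 and pysam 0.24.0, and figures were drawn with matplotlib 3.10.9.

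The members and lists were chosen with earlier results of these data known. Named were the 8 (Ebf1-KO against WT) or 4 largest called falls and rises with a mean of at least 10 and no overlap, the 4 sites of highest signal, up to 3 called sites per list (else its highest signal), the 5 largest RNA falls and rises per knockout, and the extreme scores. Rare exceptions are named as such. No sequence of chromosome 18 is shown, and 1 marker gene is not reported here. The sources used here do not say whether counting used strand, so overlapping genes may share reads.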

Additional observations from a re-analysis of the deposited data

How the results depend on the processing

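In Ebf1-KO against WT the 445 sites lower became 108 with TMM, 79 with quantile normalization, 109 with edgeR, 78 with DESeq2, 203 within 250 bp and 61 under all 3 scalings, and the 28 higher became 966, 959, 1035 and 921 with TMM, quantile, edgeR and DESeq2. In Pax5-KO against WT the 919 lower became 58, 52, 60 and 39 in that order and 49 under all 3 scalings, and the 11 higher became 360, 729, 414 and 207, and 5 within 250 bp. In Ebf1-KO against Pax5-KO the 74 lower became 48 with DESeq2 and 30 within 250 bp, and the 219 higher became 457, 84, 446 and 382, 358 with only the 2 groups compared, and 70 under all 3 scalings. The 250 bp limit kept 1162 of the 2022 sites. The share called lower in Ebf1-KO with the deposited scaling also differed by distance, 14.4%, 20.3%, 21.2% and 36.1% over the 4 ranges. The cause of these moves was not tested.

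For RNA in Ebf1-KO the 248 lower became 501, 541, 502 and 520 with TMM, quantile, edgeR and DESeq2, and the 705 higher became 461 with quantile normalization and 437 under all 3 scalings. In Pax5-KO the 188 lower became 426, 493, 421 and 457, and the 592 higher became 377 and 363. Between the knockouts the 225 lower became 354, 342, 364 and 364. With the replicate block, the 225 lower became 339 and the 249 higher 404, and no other RNA count moved by over 1.5 times. ATAC numbers did not pair libraries (r -0.052 to 0.110), and the block gave 440 and 28, 896 and 11, and 77 and 200.

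Leaving out 1 library gave 328 to 611 lower and 13 to 37 higher sites in Ebf1-KO, 604 to 1117 and 7 to 14 in Pax5-KO, and 48 to 67 and 47 to 267 between the knockouts. Under all 3 scalings the ranges were 51 to 59 and 13 to 37, 30 to 47 and 7 to 14, and 37 to 46 and 27 to 83. For RNA they were 216 to 265 and 548 to 741, 156 to 216 and 398 to 677, and 188 to 240 and 189 to 326, and under all 3 scalings 383 to 410, 308 to 338 and 183 to 298 higher. The tag shares kept their order, with differences of 14.6 to 15.7, 2.41 to 2.78 and 12.04 to 13.2 points.

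Of the 73 sites that the naming rule picked, 31 changed sign with TMM or quantile normalization in Ebf1-KO against WT (19 of them called with the deposited scaling), 36 in Pax5-KO (17 called) and 13 between the knockouts (0 called), and 0 of these were called under all 3 scalings. With quantile normalization the Ebf1-KO values became 0.29 for Itga6, 0.27 for Zap70, 0.0303 for Stat5b, 0.23 for Xrcc4, 0.28 for Jag2, 0.57 for Lmo2, 0.79 for Foxo1 and 0.36 for F2r, among others. Of 567 other-setting values of 63 ATAC results called under all 3 scalings, or called and named for a list, 542 kept direction and call, as did 1105 of 1130 for 126 RNA results. Sites with few tags, such as Il2rb, Gsn and Stat5b, rest on small counts, and the number of libraries (3 per group) limits all tests.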
